A study of Mus musculus with 12 samples.

Results

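MAX regions that were listed in untreated cells and under RANKL or I-BET given singly, and that had no peak when RANKL and I-BET were given together, numbered 2132. They were found by merging the 4 deposited MAX peak lists into 37124 regions and keeping those touched, by at least 1 bp, by a peak of each of the first 3 lists and by none of the combination list. The regions were chosen by the presence of peaks in these lists, so their presence, scores and ranks in them are descriptions and carry no test. The cells were RAW264.7, a mouse macrophage line of monocyte origin. One group was left untreated, and the others received RANKL at 50 ng/ml, I-BET at 500 nM, or both, and were crosslinked after 4 h. Each antibody (MYC, MAX) and the input has 1 library per treatment, so differences between treatments have no replicate check. Peaks were listed in mm10, and read depth is unknown from these lists.

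MAX is a small basic helix-loop-helix leucine zipper protein that binds the E-box CACGTG as the partner of MYC, an activator of growth genes, or of MXD, MNT and MGA proteins, which repress. BET proteins bind acetylated histones through bromodomains and help RNA polymerase II leave promoters, and I-BET compounds block those bromodomains. RANKL is the cytokine that drives macrophage precursors to become osteoclasts, the cells that resorb bone, through TRAF6, NF-kB and NFATC1.

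Sequences below are examples of promoters among the regions, picked for the features named with them, and do not stand for the rest. They come from the RefSeq promoter table (GRCm38.p6, the same assembly as mm10), read 5′ to 3′ on the strand of the gene, with positions counted from the annotated start site and the base before it as -1. The first 7 are stretches of 100 bases around an E-box, in capitals, that lay inside the untreated, the RANKL and the I-BET peak and had no combination peak. Stxbp2 (a syntaxin-binding protein of vesicle release) is shown at chr8:3631009-3631108, plus strand. Cfap20 (a cilium protein) lies at chr8:95434994-95435093, minus strand, Otud3 (a deubiquitinase) at chr4:138913969-138914068, minus strand, and Prpf40b (a pre-mRNA processing factor) at chr15:99295003-99295102, plus strand. These were the highest-ranked of the regions with such an E-box before the start site. Tef (a PAR bZIP factor of the circadian output) at chr15:81802499-81802598, plus strand, and Ctsf (cathepsin F of the lysosome) at chr19:4855039-4855138, plus strand, stand for gene lists described further on. Wbp2, a WW-domain-binding coactivator, at chr11:116087022-116087121, minus strand, stands for the few regions with a MYC peak.
Stxbp2: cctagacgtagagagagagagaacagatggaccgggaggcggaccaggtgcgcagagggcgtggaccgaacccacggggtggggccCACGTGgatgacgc
Cfap20: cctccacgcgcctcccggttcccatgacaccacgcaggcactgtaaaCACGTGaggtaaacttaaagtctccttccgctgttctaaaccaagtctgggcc
Otud3: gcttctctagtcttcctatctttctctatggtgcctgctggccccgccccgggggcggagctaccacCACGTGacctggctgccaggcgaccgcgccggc
Prpf40b: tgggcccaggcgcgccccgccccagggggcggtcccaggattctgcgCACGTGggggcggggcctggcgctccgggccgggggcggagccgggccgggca
Tef: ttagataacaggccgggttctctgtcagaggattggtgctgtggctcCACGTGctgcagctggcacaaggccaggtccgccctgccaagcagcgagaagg
Ctsf: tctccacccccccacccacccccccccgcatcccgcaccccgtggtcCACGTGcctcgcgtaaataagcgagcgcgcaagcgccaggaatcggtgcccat
Wbp2: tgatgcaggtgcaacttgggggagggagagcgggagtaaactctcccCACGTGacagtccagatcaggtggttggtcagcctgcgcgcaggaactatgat

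Most promoters among the regions held no CACGTG, and 3 of them are shown with the 250 bases before the start site because they belong to the MAX network or to NF-kB signalling. Mxd1 (chr6:86669160-86669409, minus strand) encodes a partner with which MAX represses genes, and capitals mark its 4 copies of CCAAT. Nfkbia (chr12:55492648-55492897, minus strand) encodes the NF-kB inhibitor IkBa, and Map3k7 (chr4:31963857-31964106, plus strand) the kinase TAK1 that acts upstream of NF-kB. Capitals in these last promoters mark GGAAATTCC, a form of the kB element, which was searched after the Nfkbia sequence had been seen. Among 1142 promoter windows that met an absent region, 2 held it on either strand, those of Nfkbia and Map3k7 (0.175%), against 7 of 3296 windows that met a region of all 4 lists and no absent one (0.212%) and 76 of all 21263 windows (0.357%). The element was thus rare in each class.
Mxd1: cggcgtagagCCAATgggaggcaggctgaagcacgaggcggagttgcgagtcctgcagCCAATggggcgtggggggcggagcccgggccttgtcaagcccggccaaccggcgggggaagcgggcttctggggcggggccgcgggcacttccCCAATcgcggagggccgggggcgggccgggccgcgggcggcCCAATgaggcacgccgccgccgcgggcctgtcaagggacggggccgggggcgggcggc
Nfkbia: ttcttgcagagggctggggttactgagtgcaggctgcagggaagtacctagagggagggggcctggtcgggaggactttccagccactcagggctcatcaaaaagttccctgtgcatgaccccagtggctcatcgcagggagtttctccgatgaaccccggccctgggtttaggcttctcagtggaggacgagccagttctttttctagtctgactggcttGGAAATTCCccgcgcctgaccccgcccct
Map3k7: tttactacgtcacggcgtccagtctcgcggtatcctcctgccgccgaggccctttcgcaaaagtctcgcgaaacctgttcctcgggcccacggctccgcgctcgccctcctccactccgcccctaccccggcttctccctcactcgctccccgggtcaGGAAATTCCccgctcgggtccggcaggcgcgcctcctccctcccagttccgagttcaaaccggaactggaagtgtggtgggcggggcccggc

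Of the 6924 merged regions found in the untreated, RANKL and I-BET lists, 30.8% had no combination peak (2132 regions, exact Clopper-Pearson 95% interval 29.7 to 31.9, counting error only). The other 4792 were in all 4 lists. The reverse patterns were smaller. Regions absent from the untreated list alone made up 11.4% of those in the other 3 lists (614 of 5406), from the RANKL list alone 4.67% (235 of 5027), and from the I-BET list alone 0.56% (27 of 4819). These shares fell with the length of the list that lacked the regions, which was 8839 peaks for untreated cells, 10889 for RANKL, 36785 for I-BET and 6307 for the combination. When each list was limited to its 6307 highest-scoring peaks, the share absent from the combination list alone was 11.6% (409 of 3538, 10.5 to 12.7). It was then 12.0% for the untreated list, 11.0% for RANKL and 15.6% for I-BET. With equal numbers of peaks, the share for the combination list lay within the range of the other 3. Whether fewer peaks were called with the combination because of the treatment or because of the library cannot be told apart with 1 library each.

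**Figure D1:**
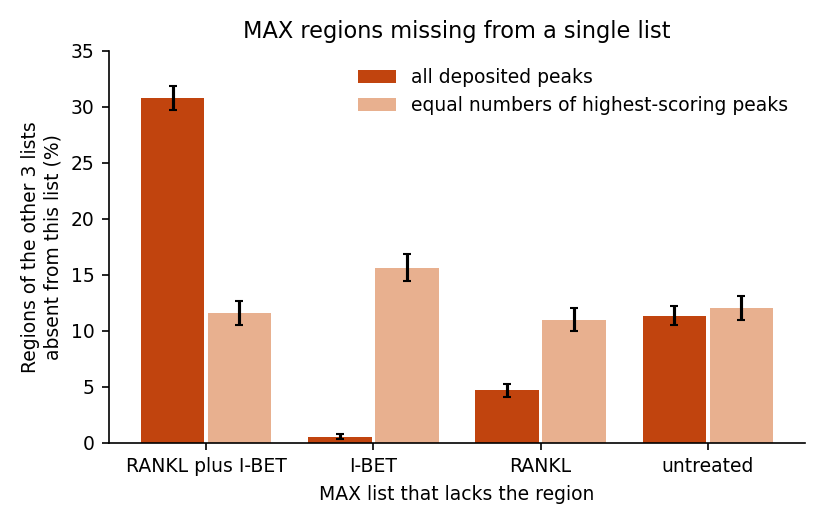
Share of regions of any 3 MAX lists that the remaining list lacks (y axis, %), by the list that lacks them (x axis), for all deposited peaks (dark bars) and for 6307 highest-scoring peaks per list (light bars). Bars show 1 library each and error bars are exact 95% intervals for counting error. The combination list reaches 30.8% with all peaks and 11.6% with equal numbers, where the other lists lie between 11.0% and 15.6%.

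The absent regions were weaker than the regions of all 4 lists in each list that held them. They stood in the lower part of the untreated and RANKL lists, at a median of 64.1% and 59.5% of the way down, and in the upper part of the much longer I-BET list, at 18.9%. The score is the authors' own value per peak and is used here only to rank peaks within a list. The absent regions had a median rank of 5668.5 of 8839 in the untreated list, 6484 of 10889 with RANKL and 6955.5 of 36785 with I-BET, against 2705, 2676.5 and 2734 for the regions of all 4 lists. Median scores in the same order were 117, 125.5 and 460 for the absent regions, and 180, 206 and 793 for regions of all 4 lists. The ranges overlapped widely: untreated scores ran from 49.7 to 453 among absent regions and from 55.7 to 1722 among the others. Merged regions were narrower where the combination peak was absent, with a median of 874 bp against 1051 bp.

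Sorted by rank into 10 equal groups, the share without a combination peak rose from 0.866% in the highest untreated group (6 of 693) to 66.9% in the lowest (463 of 692). In the RANKL list it rose from 0.144% (1 of 693) to 70.1%, and in the I-BET list from 0.433% (3 of 693) to 59.4% in the ninth group and 58.1% in the lowest. None of the 100 highest-ranked regions of any of the 3 lists lacked a combination peak. Among the regions within the 1000 highest peaks the absent ones numbered 16 in the untreated list, 6 with RANKL and 8 with I-BET.

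**Figure D2:**
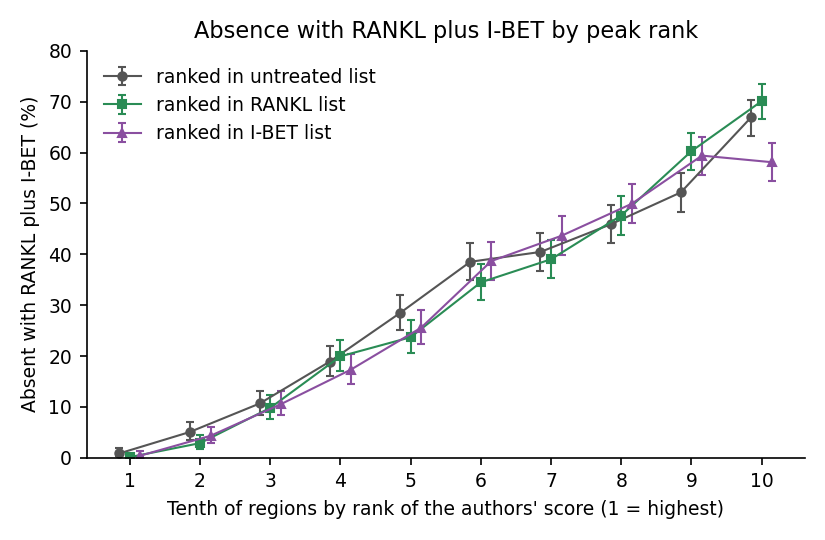
Share of regions without a combination peak (y axis, %) in 10 equal groups by rank of the authors' score (x axis, 1 = highest), ranked in the untreated, RANKL or I-BET list. Points are shares of 692 or 693 regions with exact 95% intervals for counting error. The share rises from under 1% in the highest group to between 58.1% and 70.1% in the lowest.

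At the edge of the rule, the absent region nearest to a combination peak lay 29 bp from it, at Cpsf3 (the mRNA 3′ end endonuclease) with Itgb1bp1 (an integrin-binding protein). The next were 76 bp away at Bax (a pro-apoptotic BCL2 protein) with Ftl1 (ferritin light chain), 108 bp at Sap30 (a subunit of the SIN3 histone deacetylase complex), 141 bp at Wipf1 and 175 bp within Acvr1b. In all 37 absent regions (1.74%) had a combination peak within 500 bp, and the median distance was 43370 bp. On the other side, the regions that stayed in all 4 lists with the lowest combination scores lay within Arhgap10 (55.7), at Cd164 (58.3), outside genes nearest to Klf4 (58.7), at Fbxl6 with Slc52a2 (59.7) and at Cdca3 with Usp5 (60.3). The lowest score anywhere in the combination list was 54.

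The highest-ranked absent regions are those whose peaks were strong in all 3 lists. By the sum of ranks, the first lay within the non-coding gene 9430091E24Rik on chromosome 8 (chr8:111144942-111146166), 5160 bp from Pdpr. It scored 336 in untreated cells (rank 598), 304 with RANKL (rank 1082) and 1535 with I-BET (rank 443). The second lay outside genes on chromosome 17, 18180 bp from Foxn2, with ranks 1504, 1450 and 547. A region 2516 bp from Gpr84, a medium-chain fatty acid receptor of macrophages, had the highest untreated score of all absent regions (453, rank 276). Its scores with RANKL and I-BET were 299 (rank 1119) and 789 (rank 2773). Ahnak, a giant scaffold protein, held one within its gene at ranks 887, 2299 and 1344. Coro1a, an actin regulator of leukocytes, held one at ranks 2878, 1371 and 1497. The region within Acvr1b, an activin receptor, stood at ranks 894, 1965 and 2009 and was also one of the nearest to a combination peak. Regions outside gene ends were named by a rule added after their values were seen.

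At gene ends, the first by the same order was Ccdc107 (chr4:43492600-43493794), with scores of 317, 273 and 989 in untreated, RANKL and I-BET lists (ranks 715, 1400 and 1614). That region also covers Rmrp, the RNA of the RNase MRP complex, so the peak cannot be assigned to either gene. Mast2, a microtubule-associated kinase, followed at ranks 1023, 906 and 2413, Chst10 (a sulfotransferase) at 1188, 1518 and 2681, and Slc26a2 (a sulfate transporter) at 973, 3621 and 1116. Psma1, a subunit of the 20S proteasome, stood at 1582, 1811 and 2501. Ezh2, the histone H3 lysine 27 methyltransferase of Polycomb complex PRC2, had a region of 1717 bp at ranks 1107, 2864 and 2312. Gab2, an adaptor known to bind the receptor of RANKL, ranked 2272, 1462 and 3114. The regions of Slc26a2 and Gab2 had no start site of the promoter table within 1 kb. The order differed between lists for most of these genes: Ccdc183 with Rabl6 ranked 732 with RANKL and 3959 with I-BET, and Cr1l (a complement regulator) 996 with I-BET and 3620 in untreated cells.

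The widest absent region, 4297 bp, lay at Anp32a, an acidic nuclear phosphoprotein and phosphatase inhibitor. It ranked 8778 of 8839 in untreated cells (score 61.3). Further wide regions lay at Trim8 (3978 bp), Erf (an ETS repressor, 3869 bp), Rxrb with Slc39a7 (3138 bp), Rap2b (3090 bp), Naif1 with Slc25a25 (3043 bp) and Tor4a (2986 bp).

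A smaller share of absent regions than of regions in all 4 lists lay at gene ends. Of the 2132, 1035 had a protein-coding gene end no more than 1 kb away (48.5%, exact interval 46.4 to 50.7), against 61.6% (2951 of 4792, 60.2 to 63.0) of the regions in all 4 lists and 32.6% of all merged regions. The gene table gives no strand, so an end may be that of a promoter or the 3′ side, and start sites were taken from the promoter table. Within 1 kb of a start site of the promoter table, which covers 17492 of 21887 protein-coding genes, were 43.7% and 54.5%. Inside a protein-coding gene and away from its ends were 24.3% of absent regions and 17.7% of the others, and outside all genes 16.2% and 10.3%. No test was run, since regions of 1 set of libraries are not replicates of a treatment.

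The lower share at gene ends was also seen within groups by untreated rank, inside which rank was not matched further. The regions of the 3 lists were put into 5 equal groups by untreated rank, and the absent ones numbered 41, 205, 464, 598 and 824 from the highest group to the lowest. Their share at gene ends was 29.3%, 43.9%, 47.0%, 49.5% and 50.8%, and that of regions in all 4 lists 65.6%, 59.1%, 59.6%, 61.5% and 60.5%. The first value rests on 12 of 41 regions (16.1 to 45.5). Regions of all 4 lists were also wider in each group, with median widths of 1013 to 1079 bp against 782 to 930 bp. As an overlap of 1 bp counted, a wider region can reach an end more easily, and the part of width was not tested. With equal numbers of highest-scoring peaks the shares were 60.9% of 409 absent regions (56.0 to 65.6) and 67.8% of 3129 others (66.2 to 69.5).

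**Figure D3:**
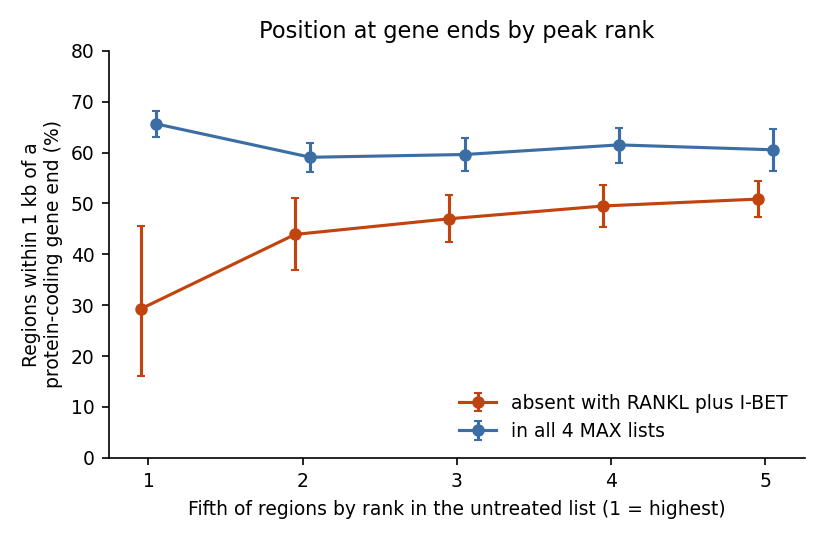
Share of regions within 1 kb of a protein-coding gene end (y axis, %) in 5 equal groups by untreated rank (x axis, 1 = highest), for regions absent with RANKL plus I-BET and regions of all 4 MAX lists. Error bars are exact 95% intervals for counting error. Absent regions lie lower in every group, at 29.3% to 50.8% against 59.1% to 65.6%. They were also narrower in every group, and width was not matched.

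MYC was listed at few of the absent regions, and the MYC lists were not used to choose them. Of the 2132, 3 overlapped an untreated MYC peak (0.141%, 0.0290 to 0.411), with RANKL 7 (0.328%), with I-BET 3 (0.141%) and with both 0, where a limit of 3 counts puts the share at no more than 0.141%. Of the regions in all 4 MAX lists 279 overlapped an untreated MYC peak (5.82%), 267 one of the RANKL list (5.57%), 19 one of the I-BET list and 11 one of the combination list. Of all merged MAX regions 0.813%, 0.781%, 0.110% and 0.0296% had a MYC peak in the same order, so the I-BET share of absent regions was near that of all regions. The MYC lists are short, with 312, 299, 136 and 11 peaks, and absence from them does not show that MYC was missing from a region. Rank matters here too: in the highest group by untreated MAX rank 233 of 1344 regions of all 4 lists had an untreated MYC peak (17.3%) and 0 of 41 absent regions (up to 7.32% by the same limit). Of those 41 absent regions, 6 were among the 693 regions at untreated ranks 1 to 695 and 35 among the 692 at ranks 696 to 1404. Rank was thus not matched within groups, and its part in the MYC difference was not tested. In the second group an untreated MYC peak was at 37 of 1180 regions of all 4 lists (3.14%) against 1 of 205 absent regions (0.488%). In the 3 lower groups both stood at 0.536% or less. With equal numbers of highest-scoring MAX peaks, 1 of 409 absent regions and 256 of 3129 others had an untreated MYC peak (0.244% and 8.18%). A RANKL MYC peak was then at 4 absent regions and 246 others (0.978% and 7.86%), so the RANKL share of absent regions moved from 0.328% to 0.978%.

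The 11 absent regions with a MYC peak can be named. With RANKL alone, MYC peaks lay within Pdgfb (a platelet-derived growth factor, MYC rank 286 of 299), at Wbp2 (227), Snrpe (a core spliceosomal Sm protein, 264), Cirbp with Fam174c (a cold-inducible RNA-binding protein, 225), Med22 with Rpl7a (196) and outside genes near Tmco5 (287). In untreated cells alone they lay at Cdc42bpb (a kinase of the cytoskeleton, rank 305 of 312) and within Nnmt (nicotinamide N-methyltransferase, 287). With I-BET alone they lay at Rps29 (rank 23 of 136) and 3908 bp from Nemf (27), where the regions cover the 7SL RNA genes Rn7s1 and Rn7s2. One region within Gm36876, 60768 bp from Axin2, had MYC peaks in every treatment but the combination (ranks 45 untreated, 24 with RANKL and 72 with I-BET). The peaks named with RANKL alone or in untreated cells alone were in the lower part of their lists, and those at Gm36876, Rn7s1 and Rn7s2 ranked higher except for Gm36876 with I-BET.

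The canonical E-box stood in a smaller share of promoters with an absent region. CACGTG, which reads the same on both strands, was searched in RefSeq promoter windows of 300 bases (250 before the start site and 50 from it on). It stood in 105 of 1142 windows that met an absent region and no region of all 4 lists (9.19%, 7.58 to 11.0), in 664 of 3296 windows that met a region of all 4 lists and no absent one (20.1%, 18.8 to 21.6), in 4.72% of windows without any MAX region and in 7.84% of all 21263 windows. The absent windows were thus near the share of all promoters. The 105 windows hold 99 copies at separate positions, since genes can share a promoter, and 98 of them lay inside the absent region itself. Of these copies 94 were inside the untreated peak, 95 inside the RANKL peak and 98 inside the I-BET peak.

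By untreated rank, the E-box share of absent windows was 44.4% (4 of 9), 13.6%, 15.4%, 9.20% and 4.44% from the highest of the 5 groups to the lowest. Windows with a region of all 4 lists held it in 29.7%, 22.7%, 13.8%, 12.3% and 11.7%. The intervals overlapped in the first 4 groups and were apart in the lowest (2.77 to 6.71 against 8.66 to 15.4). Rank and E-box content thus moved together, and the part of rank in the difference was not tested. In the sequences above, the E-box of Stxbp2 begins at position -14, that of Otud3 at -33, those of Ctsf and Wbp2 at -79, and those of Tef, Cfap20 and Prpf40b at -127, -177 and -191. Their untreated scores were 178, 194, 173, 219, 193, 254 and 182 in the same order, all above the median of 117 for absent regions. As some of these sequences were picked by rank, that is no result about E-boxes.

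**Figure D4:**
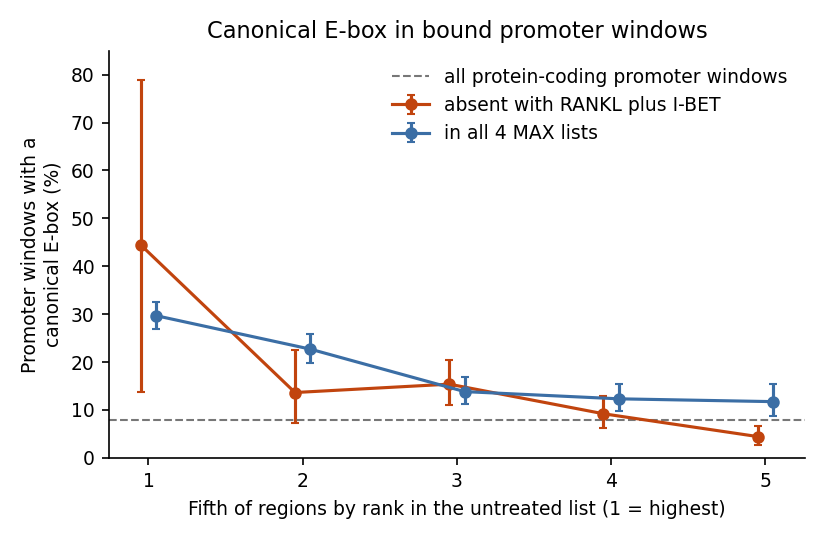
Share of promoter windows with a canonical E-box (y axis, %) in 5 equal groups by untreated rank (x axis, 1 = highest), for windows that met regions absent with RANKL plus I-BET and windows that met regions of all 4 MAX lists. Error bars are exact 95% intervals for counting error and the dashed line is the share of all protein-coding promoter windows, 7.84%. The first absent point rests on 9 windows, and the lowest rank group shows 4.44% against 11.7%.

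Other motifs were searched on both strands. The variant E-box CACGCG stood in 19.7% of absent windows, 29.3% of windows with a region of all 4 lists and 12.1% of all windows. CCAAT, the element of NF-Y, stood in 41.6% (38.7 to 44.5), 34.4% (32.8 to 36.1) and 38.2%, and GCGCATGCG, the core of the NRF1 element, in 6.39% (5.04 to 7.97), 4.46% (3.78 to 5.22) and 2.35%. The ETS core GGAAGT was found in 32.5%, 29.1% and 24.8%, the GC box GGGCGG in 72.9%, 72.5% and 46.2%, and the CREB element TGACGTCA in 3.94%, 3.40% and 2.23%. The AP-1 element TGANTCA, known from RANKL signalling through FOS, was in 4.03%, 3.16% and 6.99%. TATAAA stood in 4.20%, 5.83% and 12.6%. Of these elements CCAAT was the one with a higher share in absent windows and an interval apart from that of windows with regions of all 4 lists, and the NRF1 intervals overlapped. The 1142 absent windows belong to 998 genes and the 3296 others to 2856, so windows are not independent, and the intervals do not allow for that. CCAAT stood out from several motifs searched, and its share was not compared by rank. Median GC content was 63.3% and 64.3%, against 56.3% for all windows. A match is only a match of letters and does not show a bound factor.

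An absent region stood at an end of 1243 of 21887 protein-coding genes (5.68%). Of these, 1155 had no combination peak at either end and 88 had one as well. Since only genes with a region of the other 3 lists could lose it, the share is given over those: 1155 of 4741 genes, 24.4%. With equal numbers of highest-scoring peaks these became 278 of 2885 genes (9.64%), so the gene counts below depend on the length of the lists. The lists below were chosen with earlier results of these data in view, and 1024 of their 1026 entries matched the gene table. Counts over lists carry no test, and most rest on few genes. The list shares were not matched for peak rank, with which absence moved, and single lists were not recounted with equal numbers of peaks. Not every absent region at an end was near a start site. Those of Rps29, Eif6, Eef1g, Etf1, Lars, Gins2, Psmd7, Atp5a1, Aff1 and Meiob, among others, were not within 1 kb of that gene's start site in the promoter table. Neighbouring genes can share a region, which counts for each, as with Rars2 and Orc3, Cct5 and Atpsckmt, Atp5j and Gabpa, or Ccnk and Setd3.

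Of 47 ribosome biogenesis genes with a region of the 3 lists 5 had an absent one and no combination peak (10.6%, 3.55 to 23.1). Counted at start sites it was 5 of 41 (12.2%, 4.08 to 26.2), an interval that includes the 25.5% of all genes there. These were Polr1d and Polr1e (subunits of RNA polymerase I), Ddx24 (an RNA helicase), Rrp1 and Bms1 (both of ribosomal subunit maturation). Ddx24 scored 135 in untreated cells (rank 4590), 267 with RANKL (1469) and 657 with I-BET (3990). Polr1d scored 156, 188 and 670, and its region also lies at Lnx2. Gnl2, a nucleolar GTPase, had an absent region beside a combination peak. Cytosolic ribosomal proteins had 10 of 61 (16.4%, 8.15 to 28.1), among them Rpl6, Rpl7a, Rpl9, Rpl15, Rpl26, Rps13, Rps21, Rps26 and Rps29. Rpl15 scored 195, 122 and 724 in the 3 lists, Rps26 188, 113 and 699, and Rpl26 106, 171 and 831. The first and second stood above the median score of absent regions in untreated cells and below it with RANKL, and Rpl26 the other way round.

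Translation factors stood near the share of all genes at 10 of 38 (26.3%, 13.4 to 43.1). They comprised the initiation factors Eif1, Eif2a, Eif5b and Eif6, the EIF3 complex genes Eif3f, Eif3j1, Eif3k and Eif3m, the elongation factor Eef1g and the termination factor Etf1. Eif1 scored 135, 202 and 632 in the 3 lists, Eif2a 150, 146 and 885, and Eef1g 66.7, 157 and 813. Eif6, which keeps ribosomal subunits apart, had 2 absent regions at its ends and no other MAX region. Among tRNA synthetases 5 of 21 were absent (23.8%), the cytosolic Lars and Farsa and the mitochondrial Cars2, Nars2 and Rars2. Lars scored 221, 290 and 443, the highest of these in untreated cells.

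Cell cycle and replication genes had 6 of 21 (28.6%, 11.3 to 52.2). They were E2f1 (the S-phase transcription factor), Mcm2 and Gins2 (of the replicative helicase), Pcna (the polymerase clamp), Pola1 (DNA polymerase alpha) and Cdkn1b (the inhibitor p27). E2f1 scored 159, 243 and 504 with ranks 3415, 1867 and 6113, over a region of 2455 bp. Pcna scored 100, 90.7 and 786, and its region also lies at Cds2. Cdkn1b scored 85.7, 86.3 and 569 (ranks 7810, 9749 and 5096), well down each list. In nucleotide, one-carbon and polyamine synthesis 5 of 29 were absent (17.2%): Rrm1 and Rrm2 (both subunits of ribonucleotide reductase), Tyms (thymidylate synthase), Impdh1 and Umps. Counted at start sites it was 4 of 25 (16%), as 1 of these genes also had a combination peak there. Rrm1 scored 168, 182 and 476 and Rrm2 137, 148 and 601.

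Nuclear pore and transport genes had the lowest share among lists of over 12 such genes, 2 of 33 (6.06%, 0.743 to 20.2), with Nup155 (a pore scaffold protein) and Xpo5 (the exporter of pre-miRNAs). Splicing factors had 9 of 38 (23.7%), among them Sf3b1 (the branch-site recognition factor; scores 92.3, 102 and 1070), U2af1 (3′ splice-site recognition; 124, 152 and 847), Snrpe and Prpf31. The proteasome had 3 of 18 (Psma1, Psmc1 and Psmd7) and chaperones 5 of 20. These were the chaperonin subunits Cct2 and Cct5, Hspa4, Dnajb1 and Fkbp4. Cct5 ranked 1929 in untreated cells and 10284 with RANKL (scores 211 and 78.3).

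In metabolism, respiratory chain genes had 4 of 21 (Ndufab1, Cox6b1, Atp5a1 and Atp5j), mitochondrial biogenesis 5 of 29 (Ssbp1, Mrpl3, Tomm34, Tomm6 and Timm17a) and glycolysis with the pentose phosphate pathway 4 of 19 (Gpi1, Pgam1, Pfkm and Hk3). Ndufab1, the mitochondrial acyl carrier protein, ranked 2260 in untreated cells and 10616 with RANKL, near the end of that list. Lysosome and autophagy genes had 8 of 33 (24.2%). They included Wipi1 (autophagosome formation, with scores of 257, 182 and 755), the hydrolase genes Ctsf and Tpp1, Cln3, Npc2 (cholesterol export), Atp6v1a (a subunit of the proton pump) and Sqstm1 (the autophagy receptor p62). The region of Tpp1 lies at the start site of its neighbour Taf10, that of Cln3 also at Apobr and that of Atp6v1a also at Naa50. Among 12 circadian genes Tef was the single one with an absent region and no combination peak at its ends. It scored 193, 244 and 640 in the 3 lists, at ranks 2347, 1846 and 4174. Counted at start sites, 2 of 10 circadian genes had an absent region, Tef among them, and each had a combination peak as well.

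**Figure D5:**
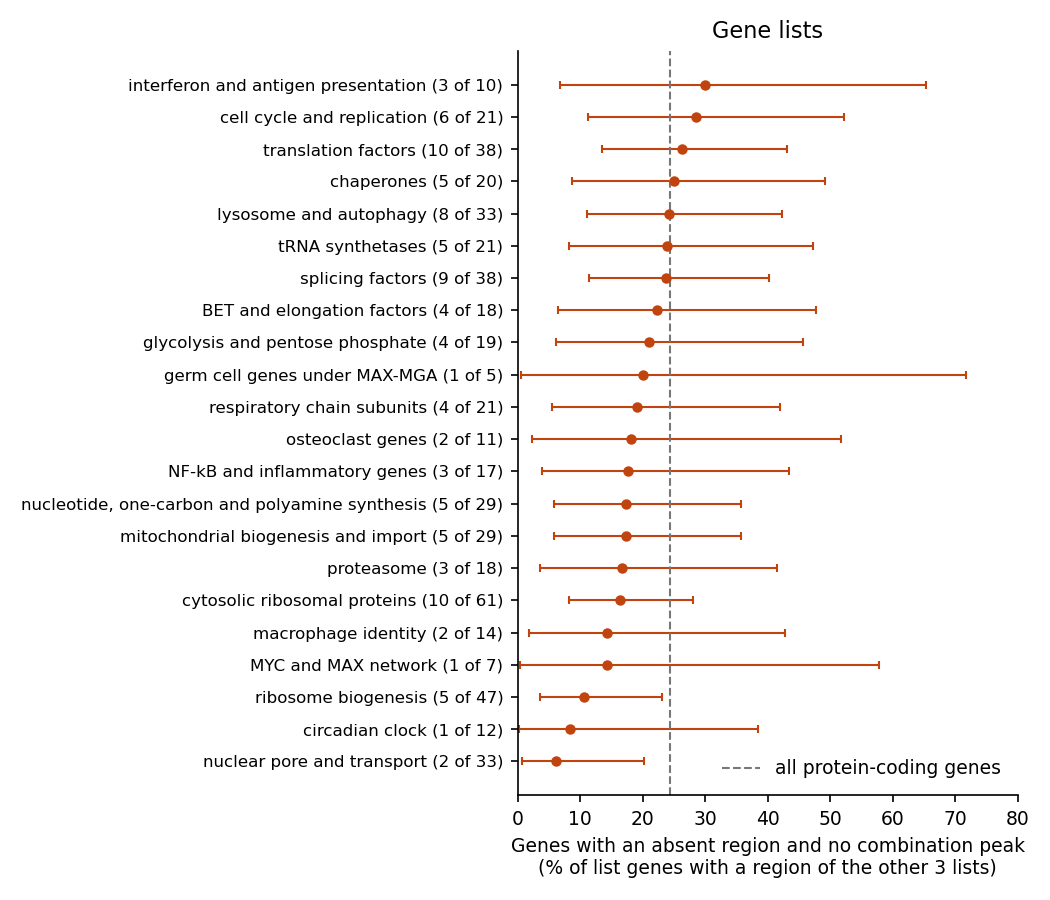
Share of list genes (x axis, %) with an absent region at an end and no combination peak, among genes with a region of the untreated, RANKL and I-BET lists, for the gene lists with at least 5 such genes (y axis, counts in brackets). Error bars are exact 95% intervals for counting error and the dashed line is the 24.4% of all protein-coding genes. Ribosome biogenesis (10.6%) and nuclear pore genes (6.06%) have intervals that end below the line, and all the other intervals include it. Shares were not matched for peak rank, and the intervals were not adjusted for the number of lists. Counted at start sites, the ribosome biogenesis interval includes the share of all genes.

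The MYC and MAX network had 1 absent gene of 7, Mxd1. Its region (chr6:86668763-86669737) scored 86 in untreated cells, 114 with RANKL and 689 with I-BET, at ranks 7784, 7376 and 3677. Max itself, Mnt and Mga kept a region of all 4 lists at an end, and at Myc and Mlx the regions at the ends were in the I-BET list alone. Of BET and elongation factor genes 4 of 18 were absent (22.2%). They were Cdk12 and its cyclin Ccnk, which phosphorylate RNA polymerase II during elongation, Aff1 of the super elongation complex and Rtf1 of the PAF1 complex. Cdk12 scored 182, 89.3 and 559 and Ccnk 65, 94 and 436. Brd2 kept a region of all 4 lists at an end.

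Of 11 osteoclast genes with a region of the 3 lists, 2 had an absent one and no combination peak (18.2%, 2.28 to 51.8), an interval that includes the 24.4% of all genes. Among them was Trem2, a myeloid receptor that signals through DAP12. Trem2 scored 80.7, 83.3 and 350, at rank 8123 of 8839 in untreated cells and 9966 of 10889 with RANKL. It also stands in the macrophage identity list, where 2 of 14 were absent. At Nfatc1, the main osteoclast transcription factor, the gene body held 1 absent region and 1 of all 4 lists, and at Spi1, which encodes PU.1, the body held 1 of each and the ends 2 of all 4 lists. The absent region of Spi1 lay 376 bp from a combination peak. Nfkb1 held 1 absent region in its body (scores 117, 98.7 and 460). At Cebpa and Mitf a region of all 4 lists remained at an end. No absent region lay at Irf8, Tfeb, Traf6, Tnfrsf11a, Relb, Ctsk, Acp5 or Fos. The ends of these genes held no region of the untreated, RANKL and I-BET lists that could be lost, and no combination peak. In gene bodies, Irf8 held 1 region of all 4 lists and Tfeb 2.

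NF-kB and inflammatory genes had 3 of 17 absent (17.6%). Nfkbia (chr12:55491576-55493176) scored 208 in untreated cells (rank 1997), 185 with RANKL (3265) and 758 with I-BET (3024), the highest of the 3 genes in each list. Map3k7 scored 107, 63.3 and 469 and Traf5, a receptor adaptor, 86, 70.3 and 563, both low in the RANKL list (ranks 10806 and 10623 of 10889). Interferon and antigen presentation genes had 3 of 10 (exact interval 6.67% to 65.2%), among them Ifnar2 (a subunit of the interferon receptor, with Il10rb at the same region) and Socs1 (a feedback inhibitor of cytokine receptors). Socs1 scored 117, 93 and 365, at ranks 5664, 9231 and 9273.

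Peak lists do not measure expression, so they do not check the labelled cell type. Any MAX region was found at an end of 11016 of 21887 protein-coding genes and 35 of 43 macrophage identity genes, against 5 of 25 neuronal, 3 of 25 hepatocyte, 7 of 20 lymphocyte and 3 of 20 fibroblast and osteoblast markers. Of these other markers the absent regions stood at Apoa2, shared with Tomm40l, and at Gata3. Among germ cell genes that MAX and MGA repress in stem cells, Meiob was the single one with an absent region.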

How the data were processed

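MYC, MAX and input ChIP-seq libraries (12, 1 per antibody and treatment) were made from RAW264.7 cells. The submitters' processing notes name MACS2 2.1.1.20160309, Bowtie2 2.3.4.1, FastQC and the builds GRCm38 and mm10. Thresholds, use of input and duplicate handling were not given in the sources used. In the deposited lists each peak has a position, joined peak names and a score, the authors' own value. Each peak joins calls from sets numbered 3, 5 and 7, whose nature is not stated. Input has no list used here.

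Lists were merged with no gap, and overlap means 1 bp. Starts were raised by 1, assuming the BED convention. Positions used the RefSeq gene and promoter tables (GRCm38.p6). Promoter windows cover 1056 of the 1243 genes with an absent region at an end. Shares carry exact Clopper-Pearson 95% intervals for counting error. No test between treatments is possible with 1 library each.

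The regions and gene lists were chosen with earlier results of these data known. Named genes are those at an end of the 20 regions with the smallest rank sum, the 10 widest, those with a MYC peak, up to 6 genes per list by rank sum, a set of regulators, genes with more than 1 absent region, and regions at the edge of the rule. Other list genes, and regions away from gene ends, were picked once their values had been seen.

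Alternatives changed merging, overlap, window, biotype and numbers of peaks. Merging and overlap gave 0 differences from bedtools 2.31.1 and were tested on simulated data. Software was Python 3.11.15, scipy 1.17.1, numpy 2.4.6, matplotlib 3.10.9 and pandas 2.3.3. Some genes are not reported here.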

Additional observations from a re-analysis of the deposited data

How the results depend on the processing

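The number of absent regions was 2069 when regions up to 500 bp apart were merged. It was 2095 when a combination peak within 500 bp counted as present. These counts stood within 1.5 times of 2132. When a peak had to cover at least 50% of a region, the number was 1679. A combination peak covering less then counted as absent, so the 1679 can include regions with such a peak. In regions that kept a combination peak, its median width was 437 bp, against 1051 bp for the merged region. Leaving out peaks under 100 bp gave 2132 and is no check. Peaks in absent regions were at least 208 bp wide, and combination peaks in the kept regions at least 209 bp. Equal numbers of highest-scoring peaks left 409 regions, a share of 11.6%, and 278 genes with an absent region and no combination peak. All 409 overlapped an absent region of the full lists. The combination list was the shortest and was not cut, so this overlap was nearly fixed in advance and is no check. With them 60.9% lay at a gene end and 0.978% had a MYC peak with RANKL. The share at a gene end was 45.6% with a window of 0.5 kb, 55.5% with 2.5 kb, 54.9% for genes of any biotype and 43.7% for start sites of the promoter table. The E-box share was 7.88% for the part before the start site and 15.7% for the upper 3 of 5 rank groups. Start sites gave 1012 genes. The rank group, the start sites, the gene counts and the MYC shares with equal numbers were chosen after seeing the data. No paired analysis was possible because the labels give 1 library per antibody and treatment, and leaving one out removes its group. Read depth is not known from peak lists, so a peak that is not listed is not shown to be unbound.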

Other observations

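Genes with more than 1 absent region at their ends numbered 18, and 8 of them encode core histones. The histone genes were then looked at as a group, after these values had been seen. The gene table holds 68 histone genes, of which 66 had any MAX region at an end, 48 had a region of the untreated, RANKL and I-BET lists, 22 had an absent region (32.4% of the 68, against 5.68% of all protein-coding genes) and 33 had a combination peak. An absent region and no combination peak were found at 20 of the 48 (41.7%, exact interval 27.6 to 56.8), against 24.4% of all genes on that base, and as neighbouring genes share regions these counts are not independent. Because neighbouring histone genes share regions, these are 19 separate absent regions beside 15 of all 4 lists. Their untreated ranks ran from 2425 to 8626. Among all regions of the 3 lists, 52.2% were absent at untreated ranks 6457 to 7544 and 66.9% at 7545 to 8839. The part of rank in the histone share was not tested, and histone genes were not counted with equal numbers of peaks. All but 3 of the 19 lie in the histone clusters of chromosome 13. Examples are the gene pairs H2ac11 with H2bc11 (scores 141 in untreated cells, 163 with RANKL and 693 with I-BET) and H3c1 with H4c1 (137, 173 and 561). Their untreated ranks, 4222 and 4447, were higher than those of most of the 19. At H2bc14 a pair of regions stood apart, at ranks 3914 and 7953 of the untreated list. On chromosome 3 both regions of H2bc18 with H3c13 were at ranks 8274 and 8556, near the end of the list.

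Absent regions overlapped tRNA genes in 18 cases (0.844%), against 24 of the regions in all 4 lists (0.501%), microRNA genes in 7 (0.328% against 0.668%) and long non-coding genes in 275 (12.9% against 15.2%). For snoRNA genes it was 4 (0.188% against 0.417%), for snRNA genes 5 (0.235% against 0.376%) and for pseudogenes 9 (0.422% against 0.396%). Most of these counts are small, no interval was computed, and the differences were not tested. By chromosome, the share of regions without a combination peak ran from 25.7% on chromosome 6 (87 of 338, exact interval 21.2 to 30.7) to 42.3% on X (22 of 52, 28.7 to 56.8), with 37.5% on chromosome 1 (163 of 435, 32.9 to 42.2), and 1 of 2 on Y. Over all chromosomes it was 30.8%, and the intervals of all but chromosomes 1 and 6 include that share. Peak rank was not matched between chromosomes.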
